A study of Homo sapiens with 6 samples.

Results

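The 10 genes described here are nuclear genes for proteins that copy the mitochondrial genome into RNA and process that RNA. They were chosen by symbol, as POLRMT, TFAM and TFB2M (transcription), HSD17B10, PRORP and TRMT10C (mitochondrial RNase P), and LRPPRC, SLIRP, FASTKD5 and TBRG4 (messenger RNA stability and maturation). All 10 were found among the 63086 genes of the count table, and all 10 had enough counts to be tested. The cells were HEK293T, an established line from human embryonic kidney, in 2 groups of 3 libraries. The 0Q group was kept free of queuine, in DMEM with 10% dialyzed serum, and the 100Q group came from the same 0Q cells after queuine had been added. The labels give the amount as 100 nM in the sample characteristics and as 1 µM for 24 hours in the treatment protocol, so the dose is uncertain. The labels speak of triplicates without saying whether these were separate cultures, so p-values measure only the spread between these libraries, which may be technical.

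Queuine is a modified base obtained from diet and gut bacteria; mammalian enzymes exchange it for guanine in the anticodons of 4 kinds of tRNA (aspartate, asparagine, histidine and tyrosine), in the cytosol and in mitochondria, where it is called queuosine. The mitochondrial genome is copied as long precursor RNAs in which tRNAs lie between most of the messenger RNAs, and cutting out the tRNAs releases the messages. The factors that do this are made from nuclear genes on cytosolic ribosomes and imported.

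Libraries held 4023935 to 11398826 rounded estimated counts, with 100Q replicate 2 the shallowest and 100Q replicate 3 the deepest. The 10 genes together took 0.0959% to 0.101% of a library, and mitochondrially encoded messenger and ribosomal RNAs took 4.98% to 6.07%. Levels are given as CPM, counts relative to library size after TMM scaling. Neuronal and kidney genes known from HEK293T were present, from 5.03 CPM for LHX1 to 177 CPM for NEFM (means of 6 libraries). The blood cell marker PTPRC had 0 counts and the hepatocyte marker ALB had 1, whereas the fibroblast marker COL1A1 was at 28.8 CPM and COL3A1 at 3.91 CPM. The part of these genes in the results below was not tested.

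The coding sequences of the 10 genes differed in the codons that queuosine tRNAs read. Each of the 4 amino acids has a codon ending in C and one ending in U (T in the sequences), and queuosine sits in the anticodon base that meets this last base. Across the canonical coding sequences of 19510 nuclear genes in GENCODE release 44, a median of 13.6% of codons were for the 4 amino acids. A median of 57.1% of these ended in C. The 10th to 90th percentile of all genes was 9.36% to 17.3% for the first share and 32.5% to 82.4% for the second. Among the 10 genes the first share ran from 10.3% in HSD17B10 to 16.3% in PRORP, and 5 of 10 lay below the median of all genes. The second share was below the median of all genes in 7 of 10, with a median of 35.4%. TFAM had 7 of its 26 such codons ending in C (26.9%, percentile 3.67 of all genes), TRMT10C 17 of 58 (29.3%, percentile 5.99) and SLIRP 4 of 13 (30.8%, percentile 7.56). The value of SLIRP rests on the transcript, since its longest coding sequence has 5 of 11 ending in C (45.5%, percentile 30.2) and 8.87% of codons for the 4 amino acids, less than HSD17B10. At the other end, POLRMT had 106 of 133 ending in C (79.7%, percentile 86.4) and TBRG4 had 53 of 72 (73.6%, percentile 77.5). LRPPRC, the gene with the most such codons, had 65 of 210 ending in C (31.0%). The set thus held both C-rich and T-rich genes, and these shares are properties of the reference sequence, not of the libraries.

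To show this difference, the stretch of 60 codons richest in these codons is printed for POLRMT, TBRG4, TFAM and PRORP. POLRMT and TFAM have the highest and lowest share ending in C. TBRG4 and PRORP had the lowest and highest log2 fold changes of the members, and neither passed. A link between codon endings and expression was not tested. Codons that a queuosine tRNA reads are in capitals, all other codons in lower case, and positions count from 1 at the first base of the start codon. In the stretch of POLRMT 16 of 17 such codons end in C, in that of TBRG4 8 of 11, in that of TFAM 4 of 13 and in that of PRORP 5 of 19.
POLRMT coding bases 3298 to 3477: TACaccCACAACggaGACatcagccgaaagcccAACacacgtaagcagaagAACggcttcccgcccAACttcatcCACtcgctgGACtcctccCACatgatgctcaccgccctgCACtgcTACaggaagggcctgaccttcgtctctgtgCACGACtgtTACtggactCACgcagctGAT
TBRG4 coding bases 199 to 378: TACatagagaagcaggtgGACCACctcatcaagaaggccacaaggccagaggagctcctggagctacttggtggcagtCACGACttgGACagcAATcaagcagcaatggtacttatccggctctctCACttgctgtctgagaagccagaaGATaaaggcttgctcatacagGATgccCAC
TFAM coding bases 460 to 639: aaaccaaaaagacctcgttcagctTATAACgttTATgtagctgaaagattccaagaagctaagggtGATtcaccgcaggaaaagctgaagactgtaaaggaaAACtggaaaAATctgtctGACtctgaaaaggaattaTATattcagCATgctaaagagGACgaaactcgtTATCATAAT
PRORP coding bases 730 to 909: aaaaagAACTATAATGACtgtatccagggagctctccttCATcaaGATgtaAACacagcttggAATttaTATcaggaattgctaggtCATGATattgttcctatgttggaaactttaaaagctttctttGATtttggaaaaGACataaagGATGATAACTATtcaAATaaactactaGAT

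**Figure D1:**
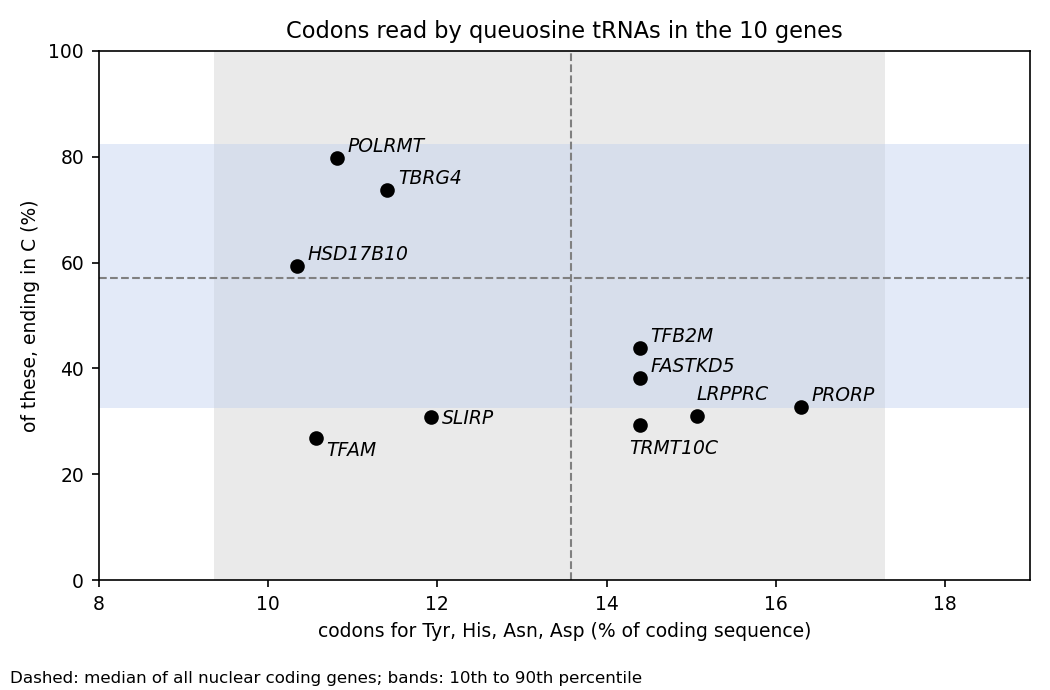
Share of the coding sequence made up of tyrosine, histidine, asparagine or aspartate codons (x axis, percent) against the share of these codons that end in C (y axis, percent), 1 point per gene. Dashed lines are medians and bands the 10th to 90th percentile of 19510 nuclear coding genes; POLRMT, TBRG4 and HSD17B10 lie above the median on the y axis and the other 7 genes below it.

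The level of the 10 genes spanned 43.7-fold per kb of canonical transcript (CPM per kb, mean of 6 libraries). SLIRP, a small RNA-binding protein that partners LRPPRC, was highest at 228 CPM per kb, followed by HSD17B10 at 85.5 and LRPPRC at 54.2. TBRG4 (38.7) and TRMT10C (38.7) overlapped over the 6 libraries and could not be ordered. POLRMT at 28.4 and TFAM at 22.8 came next. FASTKD5 (11.2) and TFB2M (8.90) also overlapped, and PRORP was lowest at 5.20 CPM per kb. Summed with a readthrough gene that shares its exons, over the length of PRORP and chosen after seeing the data, it would be at 8.08 CPM per kb (5.83 to 9.98 over the 6 libraries). That range overlaps TFB2M and FASTKD5, so the lowest rank and the span hold for the counts assigned to PRORP alone. On its own counts PRORP did not overlap TFB2M, and the other neighbours in this order did not overlap over the 6 libraries. The levels rest on 1 annotated transcript per gene, from 0.376 kb for SLIRP to 6.60 kb for LRPPRC, and would move with another choice of length.

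**Figure D2:**
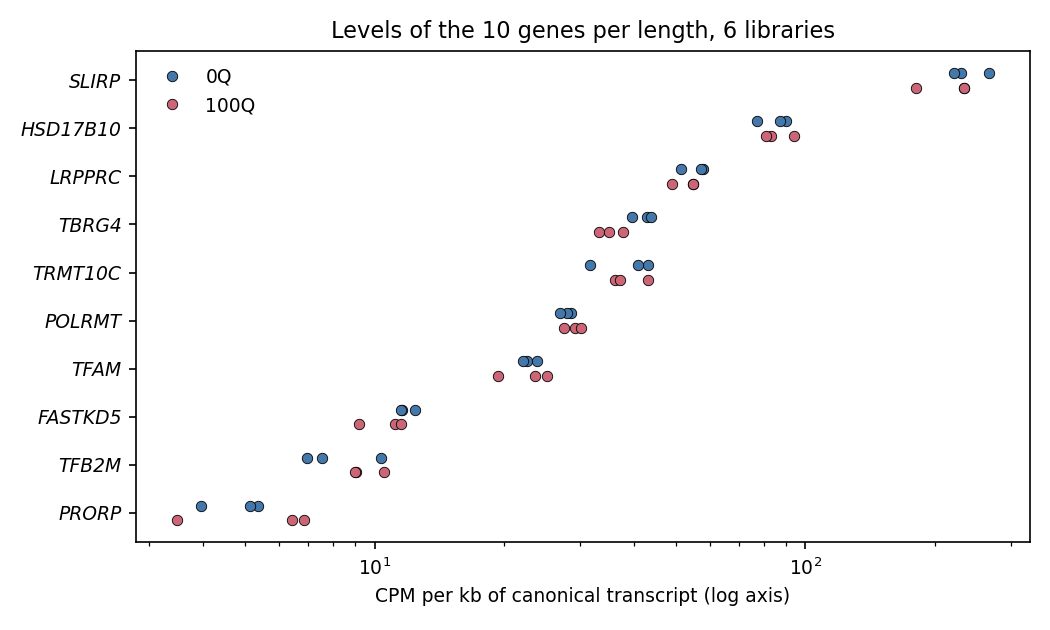
Level of each gene in CPM per kb of its canonical transcript (x axis, log scale), 1 point per library, with 0Q and 100Q in separate colours and genes ordered by mean. SLIRP lies highest at 180 to 267 and PRORP lowest at 3.47 to 6.84; the colours of a gene overlap except in TBRG4 and FASTKD5.

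The main comparison asked whether any of these genes differed between supplemented and depleted cells. None of the 10 passed in either direction, and their median log2 fold change (100Q minus 0Q) was 0.0018, beside -0.0027 over all 14905 genes tested; 4 of 10 were negative, as were 50.6% of all genes. With edgeR's quasi-likelihood test, 0 of 10 passed a Benjamini-Hochberg adjusted p of 0.05, where 0.0134% of all genes passed. DESeq2 and limma-voom also called 0 of 10. At an unadjusted p under 0.05 there was 1 of 10, TBRG4, with 4.72% of all genes below that value (2.49% higher and 2.23% lower in 100Q). The libraries of the groups did not overlap for 2 of 10, TBRG4 and FASTKD5, both lower in 100Q, against 10.6% of all genes in either direction and 5.23% lower in 100Q. In bulk RNA, fewer cells that express a gene and less RNA per cell cannot be told apart.

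**Figure D3:**
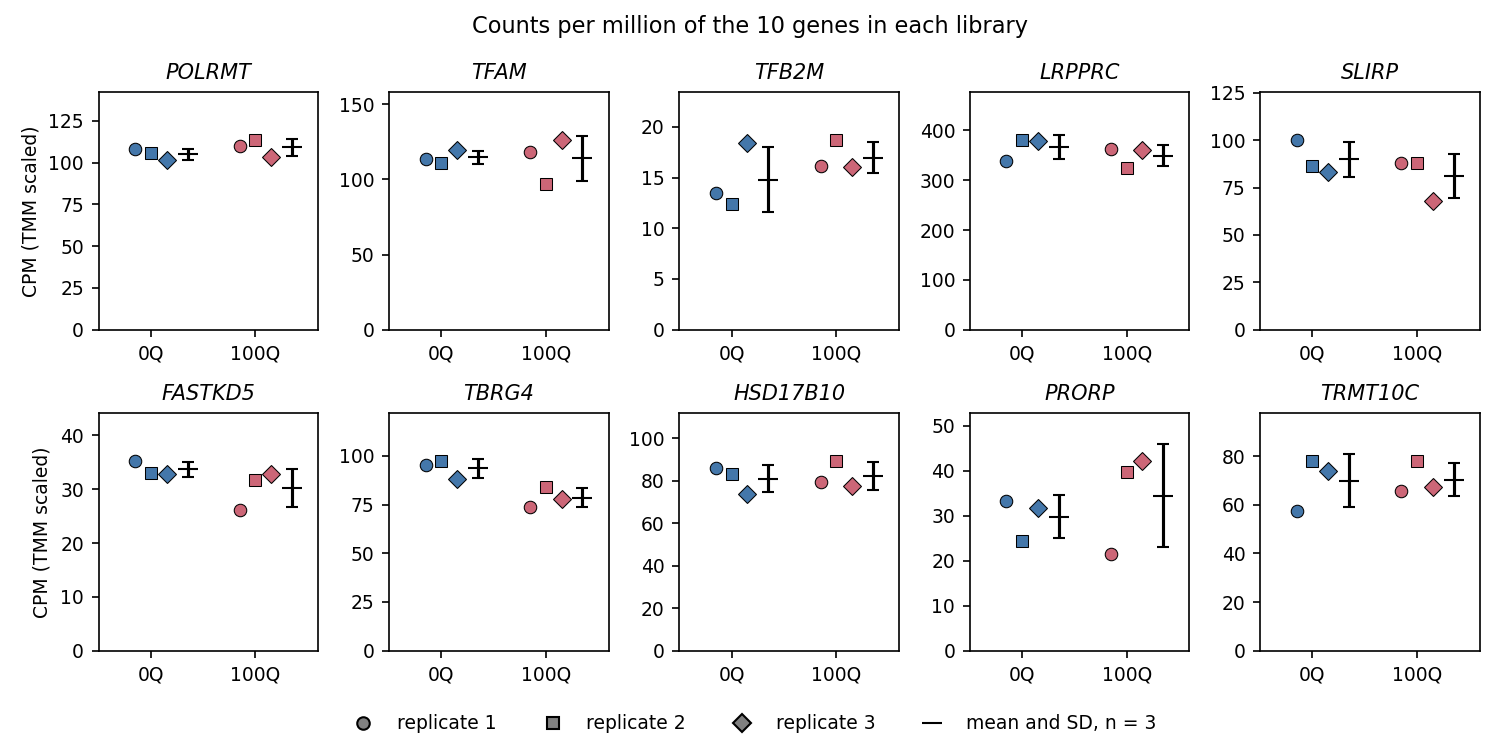
CPM (y axis, linear from 0) of each gene in the 3 libraries of 0Q and the 3 of 100Q, with the marker shape for the replicate number and a bar for the mean and SD of each group. TBRG4 lies at 88.3 to 97.6 in 0Q and 74.0 to 83.8 in 100Q without overlap, whereas PRORP spreads from 21.5 to 42.3 within 100Q.

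Among the transcription factors, POLRMT encodes the single-subunit RNA polymerase of mitochondria (chromosome 19, 617221 to 633537, minus strand, hg38). It was at 108, 106 and 101 CPM in 0Q replicates 1 to 3 and at 110, 114 and 104 CPM in 100Q. The groups overlapped, and the log2 fold change was 0.05 ± 0.09 (SE; 95% interval -0.13 to 0.24). This is the member with the least spread, with a coefficient of variation of 3.10% in 0Q and 4.73% in 100Q.

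TFAM packages mitochondrial DNA and bends it at the promoters (chromosome 10, 58385345 to 58399220, plus strand). Its values were 113, 111 and 120 CPM in 0Q and 118, 97.1 and 127 CPM in 100Q, so 100Q held both the lowest and the highest library. The means were 115 ± 4.32 and 114 ± 15.2 CPM (SD over 3 libraries), with a log2 fold change of 0.0025 ± 0.10 (SE; 95% interval -0.21 to 0.22). The mean CPM and the fitted value thus differ in sign, and both are near 0. TFB2M melts the promoter so that POLRMT can start (chromosome 1, 246540561 to 246566261, minus strand), and it had the fewest counts, 75 to 188 per library. It was at 13.5, 12.4 and 18.4 CPM in 0Q and at 16.1, 18.8 and 16.1 CPM in 100Q, with 0Q replicate 3 above 0Q replicates 1 and 2 and within the range of 100Q. The estimate was 0.19 ± 0.20 (SE) on the log2 scale, with a 95% interval of -0.24 to 0.63; it was 0.38 without 0Q replicate 3 and 0.079 without 0Q replicate 2.

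Mitochondrial RNase P cuts precursor RNA at the leading end of each tRNA and, unlike most RNase P enzymes, is made of protein alone. TRMT10C binds the tRNA and, with HSD17B10, a dehydrogenase that serves as its scaffold, also methylates it, whereas PRORP is the nuclease. HSD17B10 (chromosome X, 53431258 to 53434370, minus strand) was at 85.9, 83.2 and 73.8 CPM in 0Q and 79.6, 89.5 and 77.4 CPM in 100Q. Its log2 fold change was 0.01 ± 0.10 (SE; 95% interval -0.20 to 0.23). TRMT10C (chromosome 3, 101561868 to 101566446, plus strand) was at 57.4, 78.2 and 74.1 CPM in 0Q and 65.6, 78.0 and 67.4 CPM in 100Q. All libraries of 100Q lay within the range of 0Q for both genes, except 100Q replicate 2 for HSD17B10. The log2 fold change of TRMT10C was 0.0010 ± 0.12 (SE; 95% interval -0.26 to 0.27).

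PRORP (chromosome 14, 35121846 to 35277622, plus strand) had the largest positive log2 fold change of the 10, 0.22 ± 0.21 (SE; 95% interval -0.22 to 0.67), and did not pass. It was at 33.2, 24.4 and 31.9 CPM in 0Q and at 21.5, 39.8 and 42.3 CPM in 100Q, so 100Q held the lowest library and the highest ones. Its coefficient of variation in 100Q, 32.9%, was the highest of the 10. Leaving out 100Q replicate 1 gave 0.46 and leaving out 100Q replicate 3 gave 0.022, with no call in either fit.

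The counts of PRORP were shared with another annotated gene. ENSG00000258790, a readthrough gene on the same strand (chromosome 14, 35122549 to 35317474), joins exons of PRORP to exons of the neighbouring proteasome subunit gene PSMA6. Of its 3857 exonic bases, 74.1% are also exonic in PRORP and 23.8% in PSMA6. PRORP was the single member whose estimated count was not a whole number in 6 of 6 libraries (tolerance 0.005), which occurs where reads are divided between genes; 17.1% of all tested genes had no whole count in any library. Among the other 9 members a count that was not whole occurred in 1 library of POLRMT and 1 of SLIRP.

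The readthrough gene went the other way from PRORP. It was at 11.4, 24.4 and 29.9 CPM in 0Q and at 14.6, 17.3 and 9.23 CPM in 100Q, with overlap between the groups. The estimate was -0.73 ± 0.30 on the log2 scale (SE; unadjusted p = 0.0302 and Benjamini-Hochberg adjusted p = 0.987 with edgeR). PRORP took 74.4%, 50.02% and 51.7% of the summed counts of both genes in 0Q, and 59.4%, 69.7% and 82.1% in 100Q. The shares of the groups overlapped and spread widely within each. Summed, the pair was at 44.6, 49.0 and 61.8 CPM in 0Q and at 36.1, 57.1 and 51.5 CPM in 100Q. The sum had a log2 fold change of -0.10 ± 0.16 (SE; 95% interval -0.45 to 0.24), with the sign opposite to that of PRORP alone, a calculation chosen after seeing the data. The sums were not whole numbers either, and the readthrough gene also holds exons of PSMA6. The direction for PRORP is therefore uncertain, and the part of shared reads in it was not tested. PRORP also overlaps PPP2R3C, on the other strand, by 350 exonic bases. PPP2R3C was at mean levels of 28.4 and 32.0 CPM in depleted and supplemented cells, with a log2 fold change of 0.18 ± 0.15 (SE). The strand setting of the counting is not known, and a part of PPP2R3C in the counts of PRORP was not tested.

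**Figure D4:**
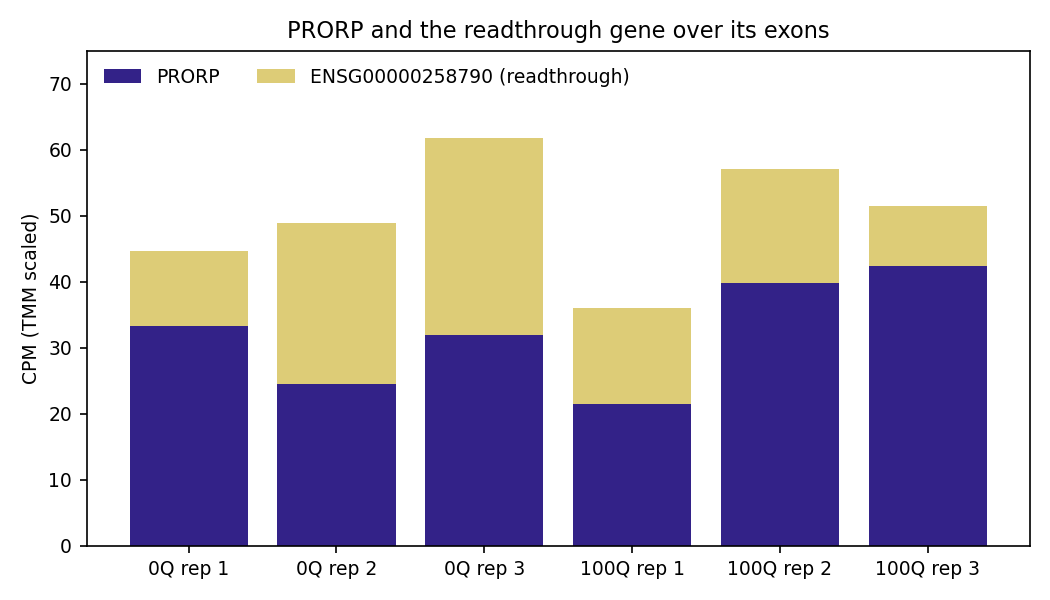
Stacked CPM (y axis, linear from 0) of PRORP and of the readthrough gene ENSG00000258790 in each of the 6 libraries. The share of PRORP in the stack runs from 50.02% in 0Q replicate 2 to 82.1% in 100Q replicate 3, and the summed heights of the groups overlap.

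LRPPRC and SLIRP form the complex that protects mitochondrial messenger RNAs and keeps them polyadenylated. LRPPRC (chromosome 2, 43886224 to 43996226, minus strand) had the most counts of the 10, 1297 to 4231 per library. It was at 339, 382 and 378 CPM in 0Q and at 363, 324 and 362 CPM in 100Q, with overlap. The log2 fold change was -0.07 ± 0.08 (SE), and its interval of -0.23 to 0.10 is the narrowest of the 10. SLIRP (chromosome 14, 77708071 to 77761104, plus strand) was at 100.4, 86.5 and 83.1 CPM in 0Q and at 87.8, 87.8 and 67.8 CPM in 100Q. Its lowest library was 100Q replicate 3 and the other 2 libraries of 100Q lay inside the range of 0Q. The log2 fold change was -0.16 ± 0.12 (SE; 95% interval -0.41 to 0.09), and it was -0.033 without 100Q replicate 3, the lowest library, and -0.079 without 0Q replicate 1, the highest. SLIRP overlaps SNW1, on the other strand, by 118 exonic bases, and the strand setting of the counting is not given in the sources used here. Counts of SLIRP per count of LRPPRC ran from 0.220 to 0.296 in 0Q and from 0.187 to 0.271 in 100Q, so the partners kept overlapping ratios in both groups.

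TBRG4 and FASTKD5 belong to the FASTK family of mitochondrial RNA-binding proteins. TBRG4, also called FASTKD4, helps keep several mitochondrial messages stable (chromosome 7, 45100100 to 45112047, minus strand). It was at 95.4, 97.6 and 88.3 CPM in 0Q and at 74.0, 83.8 and 78.1 CPM in 100Q, and every library of 100Q lay below every library of 0Q. The means were 93.8 ± 4.87 CPM and 78.7 ± 4.90 CPM (SD over the 3 libraries of each group). The log2 fold change was -0.26 ± 0.09 (SE; 95% interval -0.46 to -0.05), with an unadjusted p of 0.0164 that did not pass over all genes (Benjamini-Hochberg adjusted p = 0.987 with edgeR). With 1 library left out at a time it ran from -0.30 to -0.22, and the lowest adjusted p in any alternative was 0.792. By unadjusted p it stood at place 220 of 14905 genes, of which 704 (4.72%) had an unadjusted p under 0.05 with edgeR. Small nucleolar RNAs SNORA5A, SNORA5B and SNORA5C lie within TBRG4 and had 0 counts.

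FASTKD5 is needed to mature mitochondrial messages that have no tRNA at their ends (chromosome 20, 3146519 to 3159865, minus strand). It was at 35.3, 33.0 and 32.8 CPM in 0Q and at 26.1, 31.8 and 32.7 CPM in 100Q. The groups did not overlap, but the lowest library of 0Q and the highest of 100Q nearly met. The log2 fold change was -0.15 ± 0.14 (SE; 95% interval -0.45 to 0.15), and -0.061 without 100Q replicate 1. FASTKD5 lies inside UBOX5, on the same strand, with 100 exonic bases shared. UBOX5 had mean levels of 10.8 and 10.03 CPM in depleted and supplemented cells. UBOX5-AS1, on the other strand, shares 330 exonic bases with FASTKD5 and had 0 to 8 counts per library.

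The 95% intervals of the 10 genes, each taken alone, bound the difference only as far as the spread between these libraries allows. Whether that spread includes separate cultures is not known. The lowest bound was a fold of 0.728, for TBRG4, and the highest 1.59, for PRORP on its own counts. A 2-fold change in either direction thus lay outside the 95% interval of each gene. Differences within these bounds could not be told from the spread between libraries after adjustment over all genes.

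**Figure D5:**
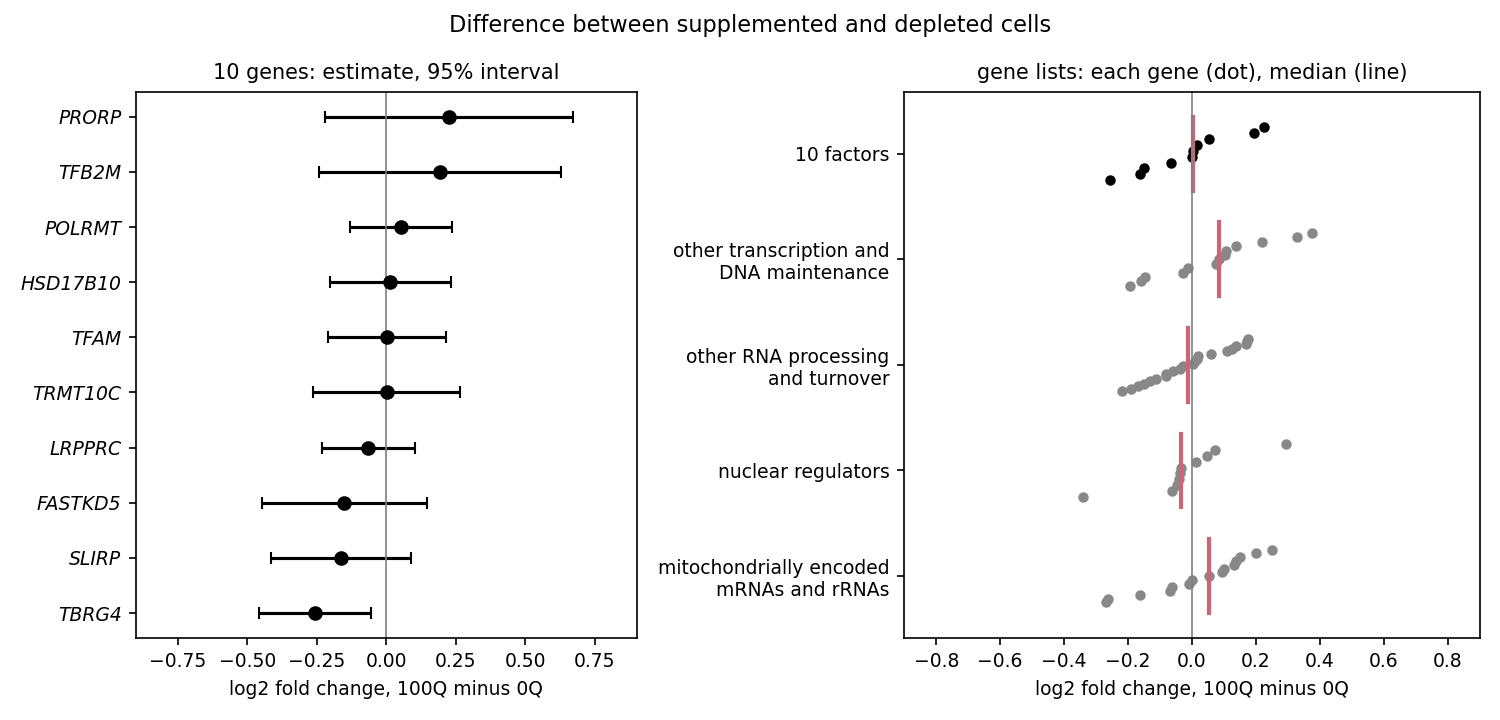
Left, log2 fold change (x axis, 100Q minus 0Q) of each of the 10 genes with its 95% interval; right, the log2 fold changes of the genes of 5 lists (dots) with each list's median (line). The interval of TBRG4 alone, -0.46 to -0.05, does not include 0, and list medians lie between -0.036 and 0.084.

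By library, the members showed no common shift. The median of their log2 CPM, each gene centred on its own mean, ran from -0.014 in 100Q replicate 3 to 0.068 in 100Q replicate 2, both in the same group. The genes closest to this median profile, among 10567 others with at least 10 CPM, were EIF2B4, UBE2G2 and ERH. Their root mean square difference from it over the 6 libraries was 0.0326, 0.0328 and 0.0337 on the log2 scale, where the median gene had 0.151. The profile is nearly flat, so genes with little spread between libraries come out close to it. A link between these genes and the members was not tested.

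Other genes of the same pathway were taken from lists fixed by function. Of 13 other transcription and DNA maintenance factors, 0 passed and 0 had an unadjusted p under 0.05, with 8 positive and 5 negative log2 fold changes and a median of 0.084. The smallest p in this list belonged to MTERF2, a mitochondrial DNA-binding protein, whose log2 fold change was 0.33 ± 0.17 (SE). It went from 19.95 ± 2.13 in depleted to 24.9 ± 4.18 CPM in supplemented cells (SD over 3 libraries). PRIMPOL, a primase and polymerase, had 0.37 ± 0.24, MTERF4 had 0.22 ± 0.15, and TWNK, the replicative helicase, had 0.14 ± 0.11.

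Of 22 other RNA processing and turnover factors, 0 passed and 0 had an unadjusted p under 0.05, with 11 in each direction and a median of -0.013. GRSF1, which marks mitochondrial RNA granules, had 141 ± 5.37 CPM in depleted and 126 ± 12.7 CPM in supplemented cells (SD over 3 libraries), a log2 fold change of -0.17 ± 0.09 (SE). PNPT1, the mitochondrial polynucleotide phosphorylase, had -0.19 ± 0.11, PTCD1 had -0.22 ± 0.16 and the pseudouridine synthase family member RPUSD3 had -0.13 ± 0.10.

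Of 10 nuclear regulators of mitochondrial genes, 0 passed and 0 had an unadjusted p under 0.05, with a median of -0.036. NRF1, a transcription factor for many respiratory genes, had a log2 fold change of 0.29 ± 0.18 (SE). MYC had -0.06 ± 0.08, and the coactivators PPARGC1A and PPARGC1B had -0.34 ± 0.54 and 0.07 ± 0.13, PPARGC1A at 3.36 and 2.61 CPM.

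Among the 15 mitochondrial genes for messenger and ribosomal RNAs, which these factors copy and process, 0 passed with edgeR, DESeq2 or limma-voom. With edgeR, 3 had an unadjusted p under 0.05, beside 4.72% of all genes. MT-ND5 had 0.25 ± 0.09 and was the 1 gene of 15 without overlap, with 100Q above 0Q (10.6% of all genes did not overlap, 5.37% with 100Q above), whereas the neighbouring messages MT-ATP6 and MT-ATP8 had -0.26 ± 0.10 and -0.27 ± 0.12, and MT-CO1 had 0.15 ± 0.07 (log2 fold changes with SE; Benjamini-Hochberg adjusted p = 0.987 for each with edgeR).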

How the data were processed

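Messenger RNA libraries of 3 queuine-free (0Q) and 3 supplemented (100Q) HEK293T samples were analysed, grouped by sample title. The deposited values are estimated counts per Ensembl gene, not normalized, made by the authors with STAR and RSEM per the submitters' processing notes, on hg38 per the series design. Versions, annotation and strand setting: not given in the sources used here. Library preparation is named MSR-seq in the labels. Estimated counts were rounded. Identifiers without version matched GENCODE release 44 for 62541 of 63086 genes. All genes were tested with edgeR 4.0.16 in R 4.3.3 (quasi-likelihood test, TMM, default filter with minimum count 10, no covariates, Benjamini-Hochberg adjusted p under 0.05). Recovery was checked in 1 set of simulated counts. Their spread between libraries was set by expression level alone, and no changed gene was drawn from the lowest levels. Recovery may therefore differ for genes with more spread than others of their level. The edgeR test recovered 2 of 50 genes changed 1.2-fold and 27 of 50 changed 1.5-fold. It recovered 42 of 50 changed 2-fold and 47 of 50 changed 3-fold, and 9 of 127 calls were wrong. Small changes could thus be missed. Libraries within a group were no copies of each other: their pairwise chi-square, divided by its degrees of freedom, was 5.36 to 14.2. Alternatives were RLE or library size only, no filter or a mean count of 50, DESeq2 1.42.0, limma-voom (limma 3.58.1), a replicate block, the longest coding sequence and leaving out each library; the summed PRORP count and its level per kb were added after seeing the data. Named genes were all 10 members, some of the genes overlapping them and 3 genes of like profile. In each other list they were genes that passed or else the 4 with the smallest p. One marker gene is not reported here. Members and lists were chosen with earlier results of these data known.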

Additional observations from a re-analysis of the deposited data

How the results depend on the processing

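None of the 10 genes passed in any of the 13 other fits. The sign was kept in each of these fits for POLRMT, TFB2M, LRPPRC, SLIRP, FASTKD5, TBRG4 and PRORP. It changed for 3 genes whose log2 fold change was near 0. TFAM had -0.0062 with no filter on low counts and -0.011 with the replicate block, and -0.085 to 0.097 with 1 library left out. HSD17B10 had -0.0015 with limma-voom and -0.048 to 0.060 with 1 library left out. TRMT10C had -0.0075 with no filter, -0.0090 with limma-voom and -0.12 to 0.089 with 1 library left out. PRORP had -0.10 when summed with its readthrough gene, whose counts this alternative adds.

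The median of the 10 genes ran from -0.043 (without 0Q replicate 1) to 0.0061 with 1 library left out, and was -0.032 without 100Q replicate 2. Of the medians of the other lists, 6 moved by more than the spread between replicates, in 5 fits. The longest coding sequence gave a median C-ending share of 41.0%, beside 35.4%.

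Over all genes, 2 passed, both higher, and the count was 71 (36 higher, 35 lower) with no filter, 11 (6 higher, 5 lower) with DESeq2, 1 with a mean count of 50 and 1 with limma-voom. With 1 library left out it ran from 0 (without 0Q replicates 1 or 2, or 100Q replicate 1) to 6 (without 100Q replicate 3); the cause was not tested. The replicate block gave 3 calls and none among the 10 genes. Deviations of same-numbered libraries correlated at 0.0043, 0.015 and 0.25 over genes, and not every library correlated best with its own number, so the numbers were not taken as pairs. TFB2M had the fewest counts of the 10 genes, 75 to 188 per library.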
